A study of Mus musculus with 6 samples.

Results

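The clustered histone genes of the mouse genome were followed in RNA from activated CD4+ T cells. They were taken as the protein-coding genes whose GENCODE M21 symbols begin with Hist1h, Hist2h, Hist3h or Hist4h, which gave 67 genes. Those with a mean TPM (a transcript level scaled for length and depth) of at least 0.5 over the 6 libraries are reported here, and they numbered 40. The TPM level thus chose the genes, and the levels are given as a description. Hist2h2ac at 0.51 TPM and Hist1h4d at 0.527 TPM lay just inside that limit, and Hist1h4n at 0.472 TPM and Hist1h4b at 0.443 TPM just outside it. The other 27 genes entered only sums over all 67.

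RNA-seq libraries came from C57BL/6J cells labelled wild type (WT, n = 3) or labelled Wtap knockout (Wtap KO, n = 3). Wtap encodes a regulatory subunit of the complex that writes N6-methyladenosine into mRNA. The protocol text, identical for all 6 libraries, describes 4-hydroxytamoxifen at 1 µM for 24 h as the depletion step, so that WT cells carry the same text. Activation for 40 to 48 h under Th1 conditions used antibodies to CD3 (1 µg/mL), CD28 (2.5 µg/mL) and IL-4 (10 µg/mL) with IL-12 (10 ng/mL), and expansion in IL-2 (200 IU/mL) followed until day 4. The Cre line, the deleted part of Wtap, the age of the animals and their number per group were not given in the sources used here. All p-values therefore measure only the spread between these libraries, which may be technical.

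Nucleosomes hold pairs of the core histones H2A, H2B, H3 and H4, and H1 binds the linker DNA between them. Dividing cells draw most new histone protein from clustered, mostly intronless genes that are transcribed in S phase. Their mRNAs normally end in a stem-loop held by the stem-loop binding protein in place of a poly(A) tail, and some of these genes also give polyadenylated transcripts. The libraries were made with the Lexogen SENSE mRNA kit, which captures RNA through its poly(A) tail. The values below are therefore levels of the histone RNA that passed this capture, not of total histone mRNA.

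The 3′ ends of the members were searched for this stem-loop in the transcripts of GENCODE M21 (GRCm38), as 16 bases after the stop codon. These comprised a stem arm of 6 bases that begins with GG and ends with T, a loop of any 4 bases, and the arm that pairs with the first in full, on the transcribed strand only. A match was present in 46 of the 67 genes and in 26 of the 40 reported ones, and in 0.745% of 21756 other protein-coding genes. Of the 14 reported genes without a match, 9 have models that stop at most 20 bases after the stop codon, so that the window could not hold it. The capitals below mark the stem-loop, with 5 bases on each side, in those genes that were lower in Wtap KO cells and had a match, in Hist1h4i, which carries another stem and loop, and in H2afx, a gene outside the clusters. The first 4 share their 16 bases, and the fifth called gene, Hist2h2be, had no match.
Hist3h2ba, chr11:58949349-58949364, plus strand: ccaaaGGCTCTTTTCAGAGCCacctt
Hist3h2a, chr11:58955172-58955187, plus strand: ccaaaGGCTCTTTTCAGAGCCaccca
Hist1h2ag, chr13:22042483-22042498, minus strand: acaaaGGCTCTTTTCAGAGCCaccta
Hist1h2bj, chr13:22043638-22043653, plus strand: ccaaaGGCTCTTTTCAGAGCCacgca
Hist1h4i, chr13:22040966-22040981, minus strand: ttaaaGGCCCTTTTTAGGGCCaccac
H2afx: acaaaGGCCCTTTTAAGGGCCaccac

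The form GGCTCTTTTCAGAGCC was found in 17 of the 26 reported genes with a match. Hist1h2ag and Hist1h2bj models end 23 bases past the stem-loop. The Hist3h2ba model runs 169 bases past it and the Hist3h2a model 1643 bases, and both have AATAAA, the canonical poly(A) signal, within their last 50 bases. RefSeq models ended at most 20 bases past the stem-loop in 24 of the 25 reported genes for which both positions could be set side by side, whereas 12 of the 26 GENCODE models ran at least 100 bases past it. AATAAA stood within the last 50 bases of the main model in 7 of the 40 reported genes. Among the other protein-coding genes the share was 66.0%, where a gene counted if any of its coding transcripts held AATAAA. In addition, 9 of the reported models stop at most 20 bases after the stop codon and hold little 3′ end to search. These shares were therefore not counted alike, and no difference is drawn from them. Hist2h2be had AATAAA and no stem-loop match in a model of 2620 bases. These annotated ends set the lengths by which TPM is divided.

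Depth ran from 32363139 to 44039467 estimated counts per library, and the 67 genes together held between 0.00561% and 0.00817% of them. Across all genes, 1626 of 17610 passed edgeR's quasi-likelihood test at an adjusted p of 0.05, with 62.2% of the calls higher in Wtap KO, a share that was 73.8% under limma on log2(TPM + 1), 73.3% on log2(TPM + 0.1), 52.6% with DESeq2 and 52.4% with the GC offset. Wtap itself had 51.2, 48.7 and 42.03 TPM in the WT and 58.8, 58.1 and 61.5 TPM in the Wtap KO libraries (log2 fold change 0.16, edgeR adjusted p = 0.371). A gene total of this kind does not check a deletion whose position is not known, and directions below follow the labels. The summed CD4 T cell markers were at 1895 to 1999 TPM in WT libraries and at 1683 to 1754 TPM in Wtap KO libraries. Dendritic cell markers (8 genes) summed to 11.5 to 37.6 TPM in WT libraries and to 44.7 to 60.02 TPM in Wtap KO libraries, with H2-Aa, Cd74 and Batf3 higher of 7 tested. The CD8 T cell pair summed to 7.18 to 7.79 and to 11.4 to 13.9 TPM, with Cd8b1 higher, and of the 9 CD4 T cell markers Cd3g and Cd4 were lower. B cell, NK cell, macrophage and granulocyte lists each stayed at or under 7 TPM in every library, with 1 granulocyte marker at 0 throughout, and the erythroid and platelet list at 4.17 to 15.2 TPM. The part of these other cells in the results below was not tested.

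Levels of the members were low. The highest means over 6 libraries were those of Hist1h4k at 12.1 TPM, Hist1h4i at 11.9 TPM, Hist2h2aa2 at 9.61 TPM and Hist3h2ba at 7.33 TPM, and the median over the 40 genes was 1.44 TPM. No reported gene exceeded 637 estimated counts in a library. By type, the reported genes were 4 of 6 H1, 9 of 18 H2A, 14 of 18 H2B, 8 of 12 H3 and 5 of 13 H4 genes. By cluster, they were 33 of 54 in Hist1 on chromosome 13, 5 of 10 in Hist2 on chromosome 3 and 2 of 2 in Hist3 on chromosome 11, and the 1 gene of Hist4 was under the limit.

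**Figure D1:**
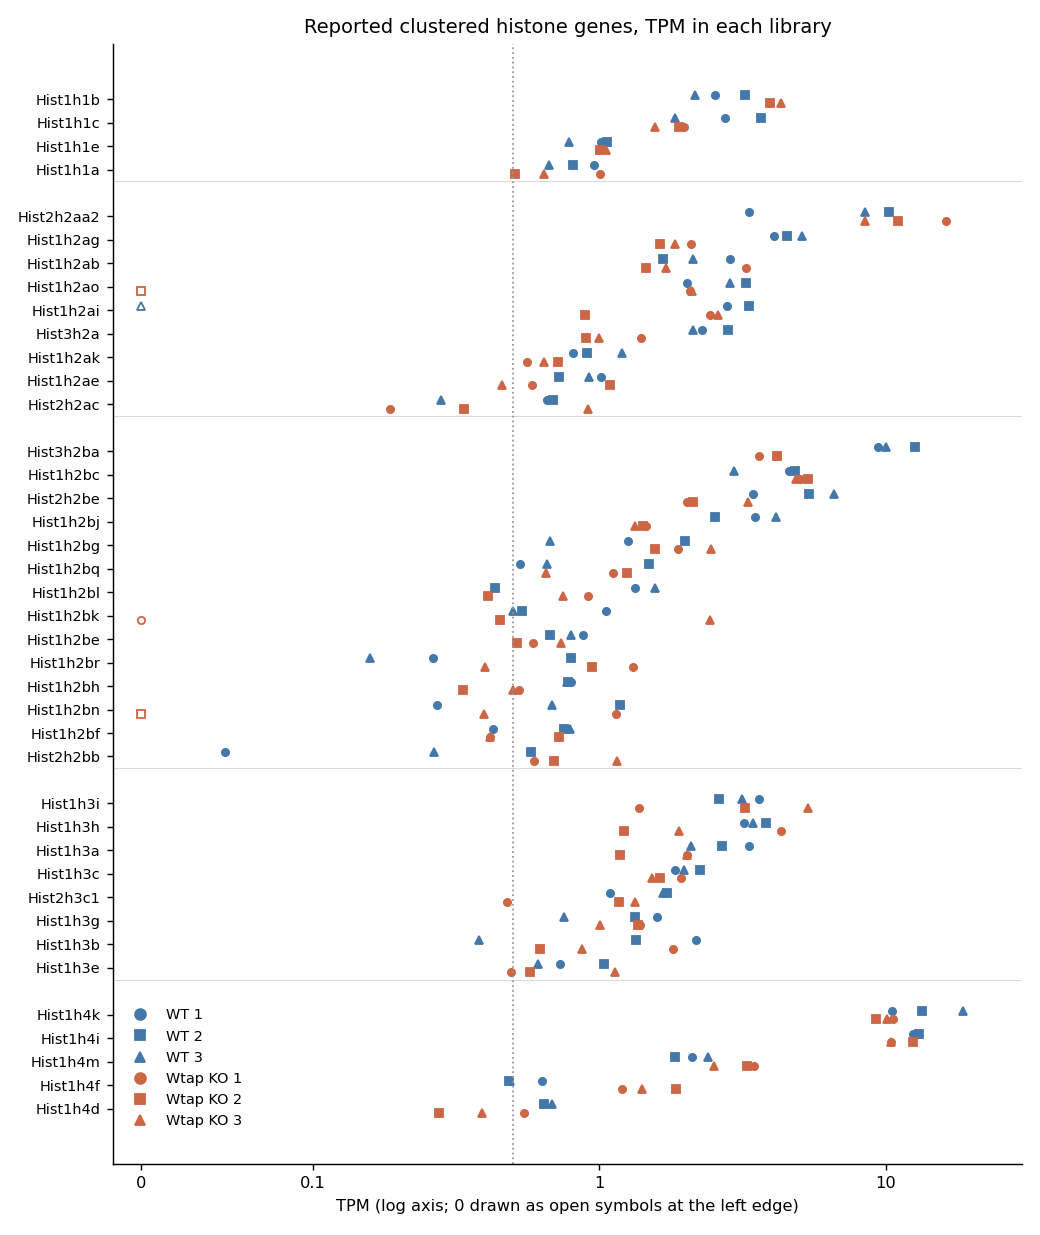
TPM of the 40 reported genes in each library, on a log axis, ordered by histone type (H1, H2A, H2B, H3, H4) and mean level; blue symbols are WT and orange symbols Wtap KO libraries, and the dotted line is the reporting limit of 0.5 TPM. WT and Wtap KO symbols are interleaved for most genes and apart for a few, among them Hist3h2ba, Hist3h2a, Hist1h2ag and Hist1h2bj.

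Of the 40 reported genes 33 had enough counts to be tested, and 5 of them were lower in Wtap KO cells while 0 were higher. Among all 17610 genes tested 3.49% were lower, 5.75% were higher and 9.23% were called in either direction. An unadjusted p under 0.05 was reached by 11 of the 33 histone genes and by 4628 of all genes, and DESeq2 also called 5. All 5 encode H2A or H2B: Hist3h2ba, Hist3h2a, Hist1h2ag, Hist1h2bj and Hist2h2be. The median log2 fold change of the 33 genes was -0.30, against -0.00058 over all genes, and 23 of 33 were negative, against 50.1% of all genes. In these bulk samples fewer cells of a type and less RNA per cell cannot be told apart.

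Hist3h2ba, an H2B gene at chr11:58948920-58949533, was the member called under each of the 16 alternative settings. It stood at 9.37, 12.7 and 10.0 TPM in the WT libraries and at 3.62, 4.16 and 4.16 TPM in the Wtap KO libraries. The groups did not overlap, and the highest Wtap KO value was under the lowest WT value. The log2 fold change was -1.47 ± 0.20 (SE, n = 3 per group), or 0.36 times the WT level (edgeR adjusted p = 0.00486, from 4.08e-08 to 0.0381 over the alternatives). Its H2A neighbour Hist3h2a lies on the same strand, 5152 bases downstream, at chr11:58954685-58956830. It had 2.28, 2.81 and 2.13 TPM in WT and 1.40, 0.897 and 0.998 TPM in Wtap KO libraries, again without overlap. Its log2 fold change was -1.18 ± 0.22 (SE; edgeR adjusted p = 0.0161). This call was lost without WT 2 (adjusted p = 0.0654), without Wtap KO 2 (0.0899) and without Wtap KO 3 (0.0664), while the sign held. Exons of Trim17 on the same strand share 708 of the 2146 bases of Hist3h2a, and Trim17 had a log2 fold change of -0.06 (SE 0.35, edgeR adjusted p = 0.94). Both genes of the Hist3 cluster were thus lower. Their summed level was 13.1 ± 2.09 TPM in WT cells and 5.07 ± 0.075 TPM in Wtap KO cells (mean ± SD, n = 3 each).

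Hist1h2ag (H2A) and Hist1h2bj (H2B) are a divergent pair in the Hist1 cluster, at chr13:22042460-22042944 on the minus strand and chr13:22043214-22043676 on the plus strand. Their start sites lie 270 bases apart. Hist1h2ag was at 4.08, 4.50 and 5.09 TPM in WT and at 2.09, 1.63 and 1.83 TPM in Wtap KO libraries, a log2 fold change of -1.36 ± 0.26 (SE; edgeR adjusted p = 0.0162). Hist1h2bj was at 3.49, 2.54 and 4.15 TPM in WT and at 1.45, 1.42 and 1.33 TPM in Wtap KO libraries, a log2 fold change of -1.33 ± 0.30 (SE; edgeR adjusted p = 0.0306). Both genes were lower in each Wtap KO library than in any WT library. The estimated counts were small, from 24 to 72 for Hist1h2ag and from 18 to 55 for Hist1h2bj. The Hist1h2ag call was lost without WT 2 (adjusted p = 0.0539) and without Wtap KO 1, 2 or 3 (0.0661, 0.0927 and 0.0623). The Hist1h2bj call was lost without WT 3 (0.0563), without Wtap KO 1, 2 or 3 (0.121, 0.114 and 0.0987), and without WT 1 and Wtap KO 3 together (0.0597). Neither sign changed.

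Hist2h2be, an H2B gene of the Hist2 cluster at chr3:96221119-96223738, stood at 3.43, 5.40 and 6.57 TPM in WT and at 2.02, 2.13 and 3.31 TPM in Wtap KO libraries. The highest Wtap KO value lay just under the lowest WT value. With 189 to 637 estimated counts per library it was the most deeply counted of the 5 genes, and its spread within WT was the widest in relation to its mean (5.13 ± 1.59 TPM, SD). Its log2 fold change was -1.10 ± 0.28 (SE; edgeR adjusted p = 0.0418). Of 16 alternatives 8 ended the call: both limma settings (0.0778 and 0.0752), the GC offset (0.0509), and leaving out WT 2 (0.118), WT 3 (0.07) or Wtap KO 1, 2 or 3 (0.169, 0.162 and 0.0568). The divergent partner Hist2h2ac, 239 bases away, was at 0.658, 0.689 and 0.280 TPM in WT and 0.185, 0.337 and 0.911 TPM in Wtap KO libraries and had too few counts to be tested.

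**Figure D2:**
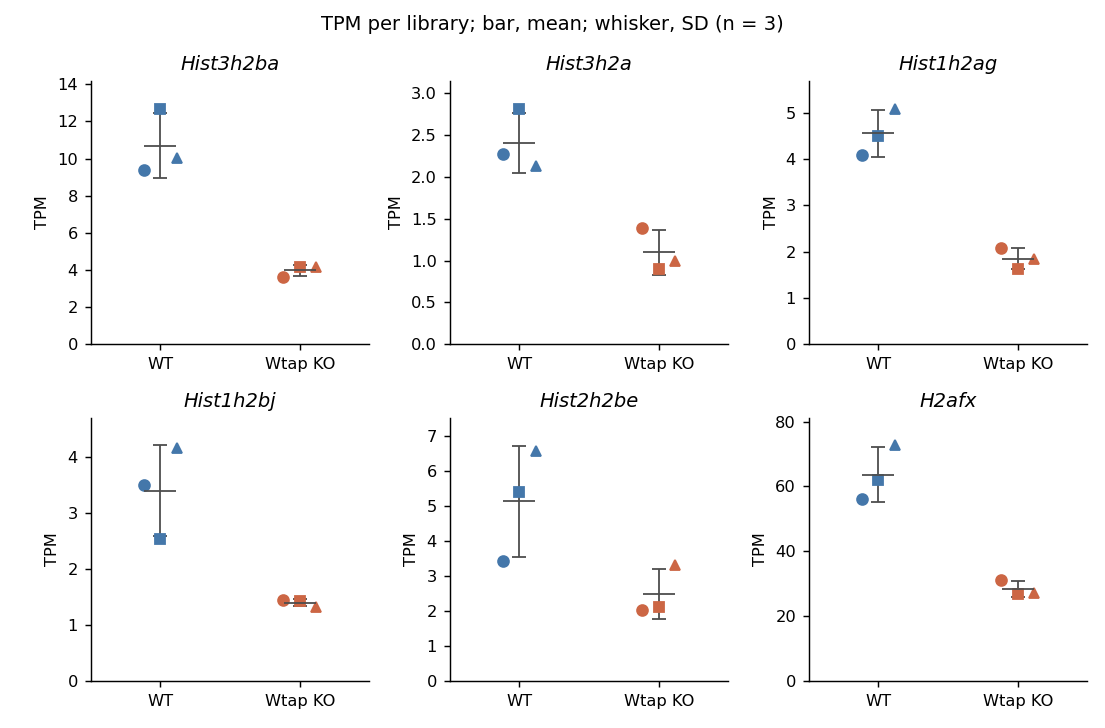
TPM in each library (vertical axis, from 0) for the 5 clustered histone genes that passed the test and for H2afx, an H2A gene outside the clusters; symbols are libraries, the bar is the mean and the whisker the SD of 3 libraries. In all 6 panels every Wtap KO library lies below every WT library, by the smallest margin for Hist2h2be.

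Summed over the 5 called genes, the level was 22.6, 27.9 and 28.0 TPM in WT and 10.6, 10.2 and 11.6 TPM in Wtap KO libraries. These genes were chosen by this same contrast, so their sum is a description. The other 35 reported genes summed to 81.99 ± 7.03 TPM in WT cells and 79.6 ± 6.77 TPM in Wtap KO cells (SD, n = 3 each), a difference in TPM smaller than the spread within either group. This remainder leaves out the genes called lower, so it too is only a description. In CPM (counts scaled for depth) it was 44.9 ± 3.80 in WT and 41.2 ± 1.67 in Wtap KO cells, with the ranges overlapping. Of its 28 tested genes, 18 had a negative and 10 a positive log2 fold change. Over all 67 genes the totals were 102, 124 and 113 TPM in WT and 102, 89.4 and 96.6 TPM in Wtap KO libraries, and the lowest WT total lay just under the highest Wtap KO total. As shares of all estimated counts the totals did not overlap, at 0.00648% to 0.00817% in WT and 0.00561% to 0.00605% in Wtap KO libraries.

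H2B was the type whose summed level separated the groups, at 28.2, 35.1 and 31.4 TPM in WT against 21.6, 20.8 and 24.4 TPM in Wtap KO libraries over 18 genes. These sums include the 3 called H2B genes. The other 15 genes summed to 11.9, 14.5 and 10.7 TPM in WT and 14.5, 13.1 and 15.6 TPM in Wtap KO libraries, with the ranges overlapping. H2A summed to 24.8 ± 4.82 TPM and 23.4 ± 5.35 TPM, with the ranges overlapping. H3 summed to 16.9 ± 1.77 and 14.2 ± 2.32 TPM, H4 to 32.5 ± 4.93 and 28.4 ± 0.435 TPM, and H1 to 7.36 ± 1.68 and 7.86 ± 0.334 TPM (mean ± SD, WT first, n = 3 each). Each of these 3 types also overlapped between the groups in TPM. In CPM, the H3 sums were apart, at 8.56, 10.03 and 8.81 in WT and 6.92, 6.69 and 8.28 in Wtap KO libraries.

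**Figure D3:**
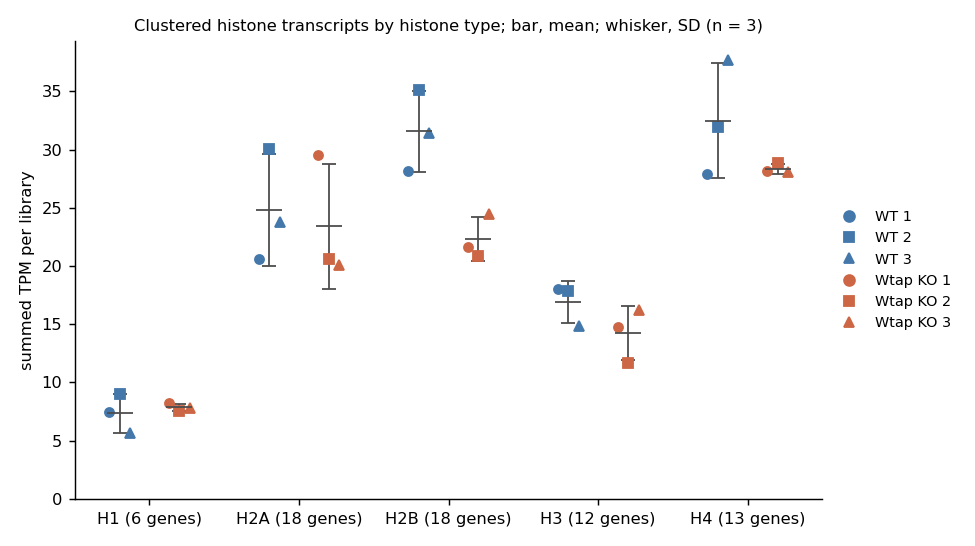
Summed TPM per library (vertical axis, from 0) over all clustered genes of each histone type; symbols are libraries, bars are means and whiskers SD of 3 libraries. The H2B sums of Wtap KO libraries, up to 24.4 TPM, all lie under the WT sums, which start at 28.2 TPM, and the other types overlap.

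Among the 9 tested H2B genes 3 were lower, 0 higher and 6 did not pass. Hist1h2bc, the H2B gene with the second highest level, was at 4.59, 4.82 and 2.96 TPM in WT and 5.01, 5.36 and 4.86 TPM in Wtap KO libraries (log2 fold change 0.26 ± 0.21 SE, edgeR adjusted p = 0.474). Its Wtap KO libraries lay just above the WT libraries in TPM, and the groups overlapped in CPM. Hist1h2bh, named after its values were seen, had 0.794, 0.777 and 0.771 TPM in WT and 0.524, 0.334 and 0.5001 TPM in Wtap KO libraries, without overlap, and did not pass (log2 fold change -0.85 ± 0.26 SE, edgeR adjusted p = 0.0747). Hist2h2bb, the remaining H2B gene of the Hist2 cluster, was at 0.0492, 0.576 and 0.264 TPM in WT and 0.593, 0.695 and 1.15 TPM in Wtap KO libraries and was not tested. An antisense gene, Gm20628, covers all 381 bases of Hist2h2bb (log2 fold change 0.91, SE 0.37, edgeR adjusted p = 0.166). Reads of Hist2h2bb and Gm20628 cannot be told apart without the strand setting.

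Of the 7 tested H2A genes 2 were lower and 5 did not pass. Hist2h2aa2 was the highest, at 3.34, 10.2 and 8.49 TPM in WT and 16.2, 11.0 and 8.43 TPM in Wtap KO libraries. WT 1 was low and Wtap KO 1 high, the other 4 libraries lay close together, and the difference did not pass (log2 fold change 0.64 ± 0.41 SE, edgeR adjusted p = 0.37). An antisense gene, Gm20632, covers all 528 bases of Hist2h2aa2, and reads of the pair cannot be told apart without the strand setting, which the sources used here do not state.

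None of the 8 H3 genes and none of the 4 H1 genes passed the edgeR test, at unadjusted p under 0.05 for Hist1h3a, Hist1h1b and Hist1h1c. DESeq2 called the same 5 genes as edgeR and therefore none of these types. Hist1h1c, which encodes H1.2, was at 2.74, 3.68 and 1.84 TPM in WT and 1.97, 1.89 and 1.56 TPM in Wtap KO libraries (log2 fold change -0.65 ± 0.26 SE, edgeR adjusted p = 0.158). Without WT 3 it was called, with an adjusted p of 0.0482. Hist1h1b, which encodes H1.5, lay the other way, at 2.54, 3.22 and 2.16 TPM in WT and 3.95, 3.93 and 4.31 TPM in Wtap KO libraries, without overlap (log2 fold change 0.58 ± 0.22 SE, edgeR adjusted p = 0.138). The 2 clustered H1 genes with the highest mean TPM thus had opposite signs, neither past the threshold.

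Hist1h3i was at 3.61, 2.62 and 3.15 TPM in WT and spread from 1.38 to 5.33 TPM in Wtap KO libraries (log2 fold change 0.03 ± 0.42 SE, edgeR adjusted p = 0.976), and its sign turned under 7 of the alternatives. Hist1h3h was at 3.19, 3.80 and 3.45 TPM in WT and at 4.32, 1.22 and 1.90 TPM in Wtap KO libraries (log2 fold change -0.54 ± 0.44 SE, edgeR adjusted p = 0.479). Wtap KO 1 was the lowest Wtap KO library for Hist1h3i and the highest for Hist1h3h, and the sum of the 2 genes ran from 6.42 to 6.80 TPM in WT libraries and from 4.44 to 7.23 TPM in Wtap KO libraries. Hist2h3c1, the reported H3 gene of the Hist2 cluster, was at 1.09, 1.72 and 1.66 TPM in WT and 0.477, 1.17 and 1.33 TPM in Wtap KO libraries (edgeR adjusted p = 0.333). Gm20634, on the same strand, covers all 1825 bases of Hist2h3c1. It was at 0, 1.34 and 0 CPM in WT and 0.760, 0.221 and 0.531 CPM in Wtap KO libraries. Hist2h3c2 has the same coding sequence as Hist2h3c1, and Hist2h3b differs from it at 1 coding base. Summed, these 3 genes were at 1.43, 2.20 and 2.02 TPM in WT and 0.769, 1.41 and 1.65 TPM in Wtap KO libraries, with the ranges overlapping. How reads were split between Hist2h3c1, its close copies and Gm20634 is uncertain.

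None of the 5 H4 genes passed the edgeR test, with unadjusted p under 0.05 for Hist1h4f and Hist1h4d, and DESeq2 called none of them. Hist1h4k was at 10.5, 13.4 and 18.6 TPM in WT and 10.6, 9.26 and 10.1 TPM in Wtap KO libraries (log2 fold change -0.58 ± 0.29 SE, edgeR adjusted p = 0.249). WT 3 stood above the rest, and with an offset on GC content the gene was called lower (adjusted p = 0.0433). Its model of 312 bases holds the coding sequence only, so that 65 to 139 estimated counts gave the highest mean TPM of the family. Hist1h4i had 12.4, 13.1 and 12.9 TPM in WT and 10.4, 12.5 and 10.4 TPM in Wtap KO libraries, with Wtap KO 2 inside the WT range (log2 fold change -0.25 ± 0.16 SE, edgeR adjusted p = 0.376). Hist1h4d was at 0.633, 0.638 and 0.681 TPM in WT and 0.545, 0.275 and 0.390 TPM in Wtap KO libraries (edgeR adjusted p = 0.189). Hist1h4f is singled out after its values were seen, as the member with the largest positive value. It was at 0.629, 0.484 and 0.486 TPM in WT and 1.20, 1.86 and 1.41 TPM in Wtap KO libraries, from 4 to 20 estimated counts. Its log2 fold change of 1.42 ± 0.39 (SE) did not pass in edgeR (adjusted p = 0.0554) and was called by both limma settings on TPM.

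**Figure D4:**
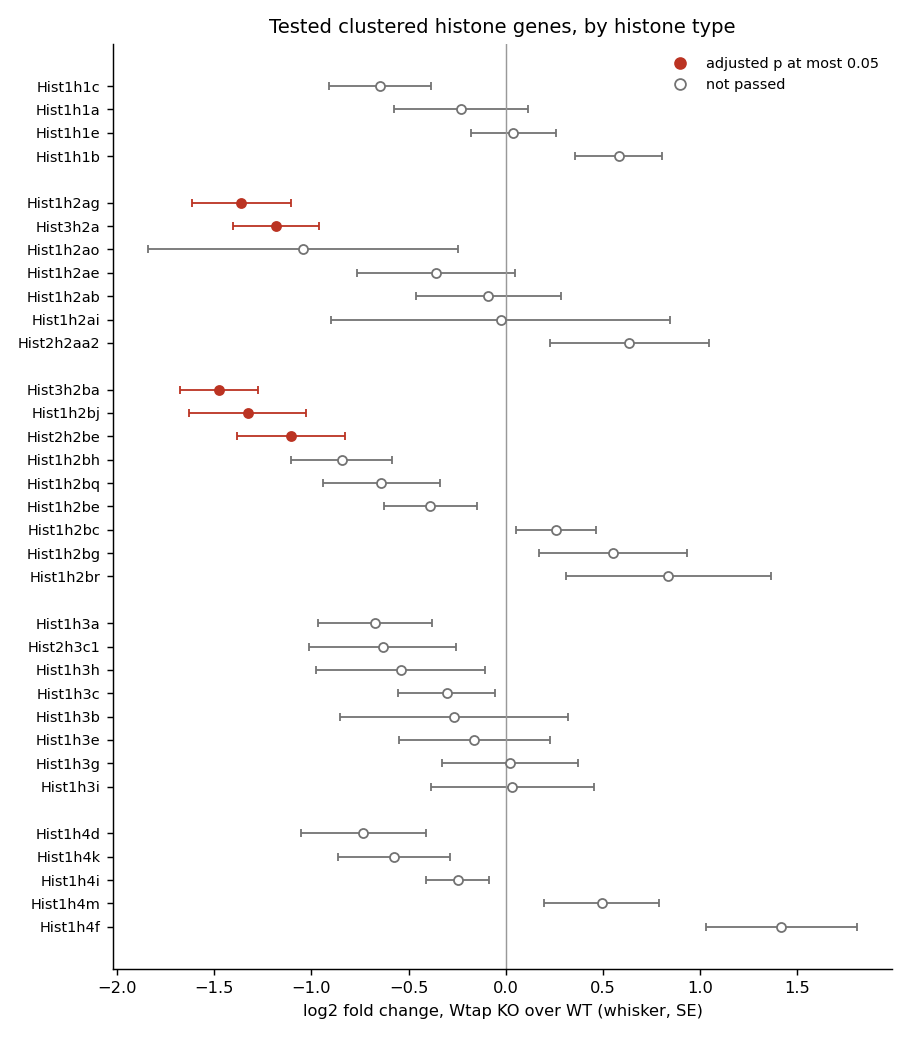
Log2 fold change of Wtap KO over WT (horizontal axis) for the 33 tested clustered histone genes, grouped by histone type and ordered within it; whiskers are SE, and filled red points passed the edgeR test. The 5 filled points are H2A and H2B genes between -1.47 and -1.10, and every histone type, H2A and H2B included, has genes on both sides of 0.

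Counted by whether the groups overlapped in CPM, 10 of the 33 genes had every Wtap KO library under every WT library and 2 had the reverse, against 15.5% and 17.2% of all genes tested. The 10 were the 5 called genes with Hist1h1c, Hist1h3a, Hist1h2bq, Hist1h2bh and Hist1h4d, and the 2 were Hist1h1b and Hist1h4f. The other 21 genes overlapped in CPM. Hist1h1c was apart only by 2.808 CPM in WT 3 against 2.802 CPM in Wtap KO 2, and its groups overlapped in TPM. Hist1h2bq also overlapped in TPM. Its counts summed with Hist1h2br, which has the same coding sequence, overlapped between the groups as well.

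Head-to-head placement was then set beside the values, since H2A and H2B genes often share the DNA between their start sites. Among the 67 genes 13 divergent pairs had start sites at most 1000 bases apart, 12 of them an H2A with an H2B gene. In 3 pairs both genes were reported and tested. Both genes were called lower in 1 pair, Hist1h2ag with Hist1h2bj. In Hist1h2bq with Hist1h2ao both values were negative and did not pass (-0.64 ± 0.30 and -1.04 ± 0.80, log2 fold change ± SE). In Hist1h2ae with Hist1h2bg the values were -0.36 ± 0.41 and 0.55 ± 0.38. Hist1h2bq shares its coding sequence with Hist1h2br, and how reads were split between them is uncertain. The 250 bases before the RefSeq start of Hist1h2bj (GRCm38.p6, chr13:22042948-22043197, plus strand), which is most of the DNA between that pair, are shown with the CCAAT boxes, the usual binding sequence of NF-Y, in capitals on either strand.
Hist1h2bj: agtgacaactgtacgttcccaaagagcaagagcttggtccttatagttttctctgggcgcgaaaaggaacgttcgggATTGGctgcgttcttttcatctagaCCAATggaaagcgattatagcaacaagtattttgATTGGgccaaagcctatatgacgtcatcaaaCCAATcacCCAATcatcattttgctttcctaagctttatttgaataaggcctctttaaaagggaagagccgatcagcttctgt

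The same window of Hist3h2ba (chr11:58948661-58948910, plus strand) is shown because this gene had the largest change, with CCAAT and TATAAA in capitals on either strand.
Hist3h2ba: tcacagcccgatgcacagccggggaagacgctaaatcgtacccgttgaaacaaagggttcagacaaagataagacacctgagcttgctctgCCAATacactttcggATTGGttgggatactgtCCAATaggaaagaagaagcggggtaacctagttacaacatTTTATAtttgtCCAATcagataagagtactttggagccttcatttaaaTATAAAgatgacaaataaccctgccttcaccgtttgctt

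The Hist1h2bj window held 5 CCAAT and 0 TATAAA matches, and the Hist3h2ba window 4 and 2. Repeated CCAAT boxes were common in the family, with at least 2 in 28 of the 38 windows of reported genes against 10.1% of 32851 RefSeq windows. Any CCAAT was present in 33 of the 38 against 33.8%, and TATAAA in 19 of the 38 against 12.4%. The 38 windows belong to 37 genes, with Hist1h2be counted more than once, and the called gene Hist2h2be has no window. Windows of divergent pairs can overlap. Those of Hist1h2ag and Hist1h2bj are nearly the same bases, so the 38 are not separate observations. Such windows stood before genes that moved and before many that did not. A match of letters in this window is a description, not a site.

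Close copies limit how far single members can be read, because the quantifier splits reads that fit several transcripts. Of the stretches of 31 bases in each model, a median of 36.5% occurred in no transcript of another gene, from 0% in Hist2h2aa2, Hist2h2bb and Hist2h3c1 to 99.7% in Hist1h1a. Other genes here include those annotated over the same bases on either strand, and not only close copies. Hist2h2bb differs from its nearest member Hist1h2bm at 40 coding bases, but Gm20628 covers all 381 bases of its model. Trim17 likewise shares 708 of the 2146 bases of Hist3h2a. Under 10% were unique in 9 of the 40 genes and over 90% in 3. The called genes had 97.2% (Hist2h2be), 67.9% (Hist3h2a), 62.8% (Hist3h2ba), 32.8% (Hist1h2bj) and 20.2% (Hist1h2ag) unique stretches. Hist1h2bj differs from its nearest relative Hist1h2bc at 4 of its 381 coding bases, and Hist1h2ag from Hist1h2ad at 2 of 393, so the values of this pair are less certain than those of the other 3.

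Standard errors were larger where little sequence was unique. Their median was 0.41 in the 8 tested genes under 10% unique and 0.24 in the 13 genes at 50% or more, which also had more counts (medians of 32.5 and 79.8 estimated counts). No gene of the former group was called, and 3 of the latter were. Hist1h2ao and Hist1h2ap have the same coding sequence. Hist1h2ao was listed at 0 in Wtap KO 2, where Hist1h2ap had 25 estimated counts and 0 in each other library. The pair summed to 2.01, 3.26 and 2.86 TPM in WT and 2.07, 1.72 and 2.10 TPM in Wtap KO libraries. Their sum thus has no library at 0. Hist2h2aa1 was at 0 in every library beside its identical copy Hist2h2aa2. Hist1h2bq and Hist1h2br, identical over 405 coding bases, had log2 fold changes of -0.64 ± 0.30 and 0.84 ± 0.53 (SE), while their counts together were 51, 47 and 56 in WT and 63, 55 and 50 in Wtap KO libraries.

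The replacement histones outside the clusters, most of them made throughout the cell cycle from polyadenylated mRNA, were read beside the members. Of 11 genes 10 were tested. Of these 4 were lower (H2afx, H3f3a, H2afv and H2afy) and 0 higher, against 3.49% and 5.75% of all genes tested. The median log2 fold change of the replacement histones was -0.41. Their summed level was 2583 ± 70.7 TPM in WT cells and 1969 ± 2.91 TPM in Wtap KO cells (SD, n = 3 each), with H3f3a the highest. H2afx, whose protein is phosphorylated at DNA breaks, carries the stem-loop printed above and a further 822 bases, and is known to give both kinds of mRNA end. It was at 56.1, 61.8 and 72.8 TPM in WT and 31.2, 26.8 and 27.1 TPM in Wtap KO libraries. The groups lay far apart, with a log2 fold change of -1.22 ± 0.14 (SE; edgeR adjusted p = 0.00229), and the call held under the 16 alternatives (1.8e-12 to 0.0187).

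H3f3a, which encodes H3.3, was at 1044, 1146 and 1289 TPM in WT and 815, 801 and 818 TPM in Wtap KO libraries (log2 fold change -0.58 ± 0.12 SE, edgeR adjusted p = 0.0203). The other H3.3 gene, H3f3b, was at 248, 237 and 192 TPM in WT and 199.9, 190.2 and 155 TPM in Wtap KO libraries and did not pass (edgeR adjusted p = 0.111). H2afv had a log2 fold change of -0.49 ± 0.10 (edgeR adjusted p = 0.0244) and H2afy, which encodes macroH2A, of -0.41 ± 0.11 (edgeR adjusted p = 0.0494). In TPM, the H2afy groups overlapped, since WT 3 at 346.9 lay under Wtap KO 1 at 350.6. H2afz was at 537, 307 and 293 TPM in WT and 229, 280.3 and 368 TPM in Wtap KO libraries, with WT 1 above the rest, and did not pass (edgeR adjusted p = 0.283). Leaving out WT 2 ended the calls of H3f3a, H2afv and H2afy (0.0659, 0.0706 and 0.164), as did Wtap KO 1 (0.0952, 0.118 and 0.136), Wtap KO 2 (0.0856, 0.113 and 0.164) and Wtap KO 3 (0.0709, 0.0722 and 0.145). H2afv and H2afy were also lost under both limma settings and the length offset, and H2afy without WT 1 and Wtap KO 3 together.

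Most factors that transcribe histone genes and process or destroy histone mRNA did not pass the test. Of 26 genes 3 were higher, 1 was lower and 22 did not pass, with a median log2 fold change of 0.01, beside 9.23% of all genes called. Lsm10, a subunit of the U7 particle that cleaves histone pre-mRNA, was at 23.9, 29.6 and 30.4 TPM in WT and 65.9, 64.6 and 54.5 TPM in Wtap KO libraries (log2 fold change 1.14 ± 0.14 SE, edgeR adjusted p = 0.00366, called under the 16 alternatives). Mif4gd, whose protein links the stem-loop binding protein to translation, was at 16.99, 18.04 and 19.9 TPM in WT and 29.3, 30.3 and 30.1 TPM in Wtap KO libraries (0.69 ± 0.13, edgeR adjusted p = 0.0154). Both rose without overlap. Coil, the coilin of Cajal bodies, rose by a log2 fold change of 0.57 ± 0.14 (edgeR adjusted p = 0.0418), and Snrpd3, an Sm protein shared by U7 and the spliceosome, changed by -0.51 ± 0.10 (edgeR adjusted p = 0.0184). Slbp, the stem-loop binding protein, was at 179, 109.7 and 133 TPM in WT and 104, 123 and 141 TPM in Wtap KO libraries (log2 fold change -0.25 ± 0.19 SE, edgeR adjusted p = 0.458). Npat, the transcriptional coactivator of these genes, was at 15.1, 12.2 and 14.6 TPM in WT and 11.3, 12.99 and 15.97 TPM in Wtap KO libraries (-0.07 ± 0.14, edgeR adjusted p = 0.791). Its sign turned with the GC offset and without Wtap KO 1. Neither of these 2 genes differed beyond its spread. Without WT 2, Wtap KO 1, Wtap KO 2 or Wtap KO 3 the calls of Mif4gd (0.0693, 0.0619, 0.0816 and 0.0522), Coil (0.139, 0.1, 0.196 and 0.109) and Snrpd3 (0.0502, 0.0958, 0.0899 and 0.0624) were lost, and Coil was lost under 6 further alternatives.

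**Figure D5:**
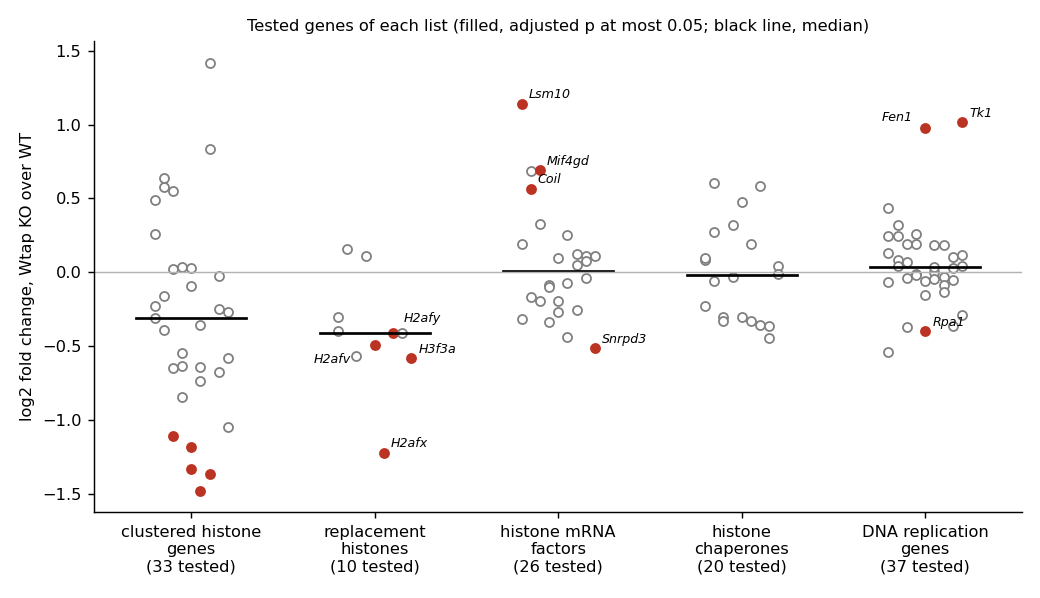
Log2 fold change of Wtap KO over WT (vertical axis) for the tested genes of 5 lists; points are genes, filled red points passed the edgeR test, and black lines are medians. The clustered and the replacement histones have medians of -0.30 and -0.41, and the medians of the other lists lie between -0.02 and 0.04.

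None of the 20 histone chaperones passed the edgeR test, with Chaf1a, Daxx, Ipo4, Nap1l1 and Rbbp4 at an unadjusted p under 0.05 and 3 genes called by DESeq2, and their median log2 fold change was -0.02. The genes of S phase and DNA replication had a median of 0.04 over 37 genes. Of these 2 were higher and 1 lower, beside 9.23% of all genes called in either direction. Fen1, the flap endonuclease of lagging-strand synthesis, was at 11.9, 9.69 and 10.6 TPM in WT and 21.4, 21.2 and 22.9 TPM in Wtap KO libraries (log2 fold change 0.97 ± 0.12 SE, edgeR adjusted p = 0.00289). Tk1, a thymidine kinase of S phase, was at 27.2, 19.7 and 24.0 TPM in WT and 51.0, 48.4 and 52.1 TPM in Wtap KO libraries (1.02 ± 0.14, edgeR adjusted p = 0.00443). Rpa1, the large subunit of the single-strand binding protein, changed by -0.40 ± 0.09 (edgeR adjusted p = 0.0351), a call lost under 10 alternatives, among them leaving out WT 2 (0.1), WT 3 (0.0586) or Wtap KO 1, 2 or 3 (0.145, 0.162 and 0.0795). The 37 genes together summed to 1437 to 2190 TPM in WT libraries and 1526 to 1892 TPM in Wtap KO libraries, with WT 1 the highest and the ranges overlapping.

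RNAs other than histone mRNA that have no poly(A) tail were read beside the members. Of 11 such genes 8 had a mean under 1 TPM. Rn7sk, the 7SK RNA and the most abundant of them, named after its values were seen, was at 21.1, 132 and 169 TPM in WT and 186, 206 and 272 TPM in Wtap KO libraries, and did not pass (log2 fold change 0.94, edgeR adjusted p = 0.436). It was lowest in WT 1 and higher in every Wtap KO library than in any WT library by TPM, while the groups overlapped in CPM. The part of tail selection in the levels of single members was not tested.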

How the data were processed

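RNA-seq of 3 WT and 3 Wtap KO libraries was analysed. Per the submitters' processing notes, the authors used kallisto 0.44.0 and DESeq2 with GRCm38 (mm10). The deposited tables give, for each of 142647 transcripts, an estimated count (expected count), a TPM value scaled by the authors for effective length and depth, a length and an effective length. Their annotation index and strand setting were not given in the sources used here, nor was the use made of DESeq2. kallisto splits reads between similar transcripts, and the tables give no error of that split.

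Transcripts were joined to GENCODE M21 by identifier without version; 1218 did not match and were left out. Both values were summed over the transcripts of each gene, and summed counts were rounded to whole numbers. edgeR 4.0.16 in R 4.3.3 (quasi-likelihood, robust, TMM, filterByExpr, genotype only) was fitted on all genes, with Benjamini-Hochberg adjustment over the 17610 genes tested. SE was derived from the log2 fold change and its quasi-likelihood F value. In simulated data for this contrast (17124 genes tested), 46% of 200 genes changed by 1 on the log2 scale were recovered, with 8 false calls. These 200 were drawn from all genes at their own levels, so the share was not measured for genes with counts as low as the members'. Replicates of a group differed beyond counting noise, so none was merged.

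Members and lists were chosen with earlier results of these data known. Named were the called members, the top 2 by TPM of each histone type, those outside Hist1, those nearest the TPM limit, and called list genes with Slbp, Npat, H2afz, H3f3a and H3f3b. Alternatives used RLE, DESeq2 1.42.0, other filters, limma 3.58.1 on TPM, length and GC offsets, the replicate number, and fewer libraries. Promoter windows are RefSeq's.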

Additional observations from a re-analysis of the deposited data

How the results depend on the processing

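Over the alternatives the number of members called stayed at 4 or 5 apart from leaving out single libraries, where it ranged from 1 to 5 (2 when WT 2 or Wtap KO 1 was left out, 1 for Wtap KO 2 or 3), and Hist3h2ba was called each time. Members taken from a mean of 0.25 or 1 TPM gave the counts of the main limit within 1.5 times. The median log2 fold change of the members, -0.30, was -0.57 with a filter at 1 CPM, -0.14 and -0.21 under limma on log2(TPM + 1) and log2(TPM + 0.1), -0.44 with the GC offset, -0.42 without WT 1 and Wtap KO 3, and -0.37 to -0.22 with single libraries left out. All genes called, 1626, became 2496 with DESeq2, 1061 with the replicate block and 361 to 2282 with single libraries left out. Replacement histones called, 4, became 2 under both limma settings, 2 with the length offset, 2 with the replicate block and 1 to 5 with single libraries left out. Histone mRNA factors, 4, became 7 with DESeq2, 7 with the GC offset and 1 to 5 with single libraries left out. Chaperones, 0, became 3 with DESeq2, 1 without a filter, 2 with the GC offset, 4 without WT 1 and Wtap KO 3 and 0 to 1 with single libraries left out. Replication genes, 3, became 5 with DESeq2, 5 with the GC offset, 7 without WT 1 and Wtap KO 3 and 2 to 6 with single libraries left out. Hist1h3i (log2 fold change 0.03) turned to -0.042 and -0.10 under limma, -0.22 with the GC offset, -0.086 with the replicate block, -0.39 without WT 1 and Wtap KO 3, and ranged from -0.44 to 0.39 with single libraries left out. Npat (-0.07) turned to 0.013 with the GC offset and 0.041 without Wtap KO 1. The cause of these changes was not tested.

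The labels do not say that replicate numbers pair the samples, and the main fit was unpaired. Deviations of same-numbered libraries correlated at -0.10, 0.05 and 0.14 over 17610 genes, and not every library correlated best with its own number. With n = 3 per group and deviations taken from the group mean, these values cannot show whether pairs exist. With the number as a block 4 members were called, Hist1h2bj being lost (adjusted p = 0.0614), as were the calls of H2afv (0.0626), H2afy (0.0883), Snrpd3 (0.0549), Coil (0.0867) and Rpa1 (0.0912). Most members had under 100 counts per library, which limits what single genes can show.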
